A study of Mus musculus with 9 samples.

Results

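Insulin signalling in epididymal fat was followed through 8 genes, picked by symbol from the 32285 genes of the matrices: Insr, Irs1, Irs2, Pik3r1, Akt2, Tbc1d4, Slc2a4 and Foxo1. Single-nucleus RNA sequencing with the 10x Genomics 3′ kit had been done on male C57BL/6J mice, with 1 library per diet group and nuclei of 5 mice pooled in each library. C, CC and CCC were controls aged 18, 26 and 39 weeks. H and HH were mice kept on high-fat diet (HFD) for 12 and 25 weeks and sampled at 18 and 31 weeks of age. HC and HHC had the same 12 or 25 weeks of HFD followed by 8 weeks of chow and weight loss (WL), and were sampled at 26 and 39 weeks. CCH had 26 weeks of chow and then 4 weeks of HFD, and HCH had 12 weeks of HFD, 8 weeks of chow and 4 weeks of HFD again, both at 30 weeks of age. The labels call the control diet chow, whereas the series description calls it low fat. The labels name no transgene or deletion. Because the mice of a group share 1 library, the spread between mice of a group could not be measured, and the age of a control is not exactly that of every group set against it.

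Insulin binds its receptor on the adipocyte, and the activated receptor phosphorylates the adaptor proteins IRS1 and IRS2. The adaptors dock the regulatory subunit of phosphoinositide 3-kinase, whose lipid product leads to activation of the kinase AKT2. AKT2 then phosphorylates TBC1D4, also called AS160, which releases vesicles carrying the glucose transporter GLUT4 to the cell surface, and phosphorylates FOXO1, which is thereby kept out of the nucleus. Adipose tissue of obese animals is known for a blunted response to insulin along this chain.

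By role, Insr encodes the insulin receptor, Irs1 and Irs2 the adaptors, Pik3r1 the regulatory subunit p85α, Akt2 the kinase, Tbc1d4 the brake on vesicle traffic, Slc2a4 the transporter GLUT4 and Foxo1 the transcription factor. Coordinates are those of GENCODE vM21 on GRCm38. Insr lies on chromosome 8 from 3122061 to 3279617, Irs2 on chromosome 8 from 10984681 to 11008458, Irs1 on chromosome 1 from 82233101 to 82291416, and Pik3r1 on chromosome 13 from 101680563 to 101768217. Akt2 lies on chromosome 7 from 27591552 to 27640826, Tbc1d4 on chromosome 14 from 101442360 to 101609191, Slc2a4 on chromosome 11 from 69942539 to 69948188, and Foxo1 on chromosome 3 from 52268336 to 52353221. Slc2a4 is the only short gene of the group, with a length of 5.65 kb of which 61.6% is exonic. The other members measure 23.8 kb (Irs2) to 167 kb (Tbc1d4), with 4.60% (Tbc1d4) to 26.6% (Irs2) of their length in exons.

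The promoters of the adaptor genes are shown because they alone, among the members with a RefSeq promoter window, held motifs tied to insulin and FOXO1. FOXO proteins are known to switch on Irs2 when insulin is low, through TGTTTTG, the core of the insulin response element. RefSeq windows were matched for 6 of the 8 genes, not for Insr and Slc2a4, and gave 10 promoters. In the 250 bases before the start, searched on both strands, TGTTTTG was found in 5.56% of all 32851 promoters and the E-box CACGTG, a site of basic helix-loop-helix factors, in 6.02%. Irs1 and Irs2 held both motifs, which 0.295% of all promoters did, and the other 4 matched members held neither. The FOXO consensus TGTTTAC was in no member window and in 3.17% of all windows. Below are the 150 bases before the RefSeq start on GRCm38.p6, chr1:82291440-82291589 for Irs1 and chr8:11008930-11009079 for Irs2, both on the minus strand. Capitals mark both motifs, which overlap in the first marked run of Irs1.
Irs1: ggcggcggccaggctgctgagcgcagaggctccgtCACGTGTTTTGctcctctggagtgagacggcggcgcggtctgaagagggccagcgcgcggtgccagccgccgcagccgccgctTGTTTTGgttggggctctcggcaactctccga
Irs2: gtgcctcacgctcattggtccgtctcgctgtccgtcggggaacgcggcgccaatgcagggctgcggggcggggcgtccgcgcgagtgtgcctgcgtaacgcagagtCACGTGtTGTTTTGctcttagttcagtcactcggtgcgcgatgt
A motif match describes the letters and does not show binding.

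The matrices held 91687 barcodes and 22599619 (CCC) to 66615262 (HHC) unique molecular identifiers (UMIs, counts of captured RNA molecules) per library, and 73144 nuclei were kept. Of the 90625 distinct barcodes, 1052 occurred in more than 1 library. Nuclei were sorted into classes by marker genes and are named with the suffix -like. The adipocyte-like class numbered 2425, 791 and 1501 nuclei in C, CC and CCC, 200 and 442 in H and HH, 825 and 372 in HC and HHC, and 666 and 401 in CCH and HCH. Their median depth was 4822, 4697 and 2347 UMIs in C, CC and CCC, and 4512 and 4485 in H and HH. It was 3810 and 4494 in HC and HHC, and 5312 and 4298 in CCH and HCH. All 11 adipocyte markers of the gate were detected in each of the 9 libraries, and 5 further adipocyte genes that were not used for gating summed to 2581 to 4888 counts per 1000000 UMIs of the class (CPM). Macrophage markers, 12 of 12 detected in adipocyte-like nuclei of each library, summed there to 120 to 548 CPM in the control libraries, 1620 and 1131 in H and HH, 741 and 2974 in HC and HHC, and 150 and 1008 in CCH and HCH. Progenitor markers summed to 1052 to 1505 CPM in the controls, 912 and 999 in H and HH, 1010 and 1012 in HC and HHC, and 1060 and 1861 in CCH and HCH. Endothelial markers summed to 82.0 to 314 CPM in the controls, 41.7 and 67.5 in H and HH, 180 and 147 in HC and HHC, and 74.4 and 156 in CCH and HCH. Macrophages express Insr, Tbc1d4 and Pik3r1 themselves, and the part of other cell types in the member levels was not tested. The library names in the labels begin with S075 for C, H, HH, CCH and HCH and with S019 for CC, CCC, HC and HHC. What the prefix stands for is not said, and it is called the sequencing set here, so that set and state cannot be told apart for H and HH against HC and HHC.

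Adipocyte-like nuclei had the highest level of 6 members in all 9 libraries, among the 5 classes compared (adipocyte-, progenitor-, macrophage-, endothelial- and mesothelial-like). Insr was the first exception, in that endothelial-like nuclei exceeded adipocyte-like nuclei in C, at 942 against 649 CPM, and in H, at 545 against 526 CPM, the latter with overlapping counting intervals. Tbc1d4 was the second, since progenitor-like nuclei were above adipocyte-like nuclei in CC (617 against 541 CPM), CCC (541 against 429) and HCH (476 against 410). Slc2a4 was low outside the adipocyte-like class, which had 24.4 to 69.1 CPM where progenitor-like nuclei had 1.09 to 16.7 and endothelial-like nuclei 1.27 to 27.3. Irs1 was also low in macrophage-like nuclei, at 3.62 to 108 CPM, against 273 to 754 in adipocyte-like nuclei. Akt2 stood between 90.7 and 162 CPM in adipocyte-like nuclei and between 21.6 and 79.5 in the other 4 classes.

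**Figure D1:**
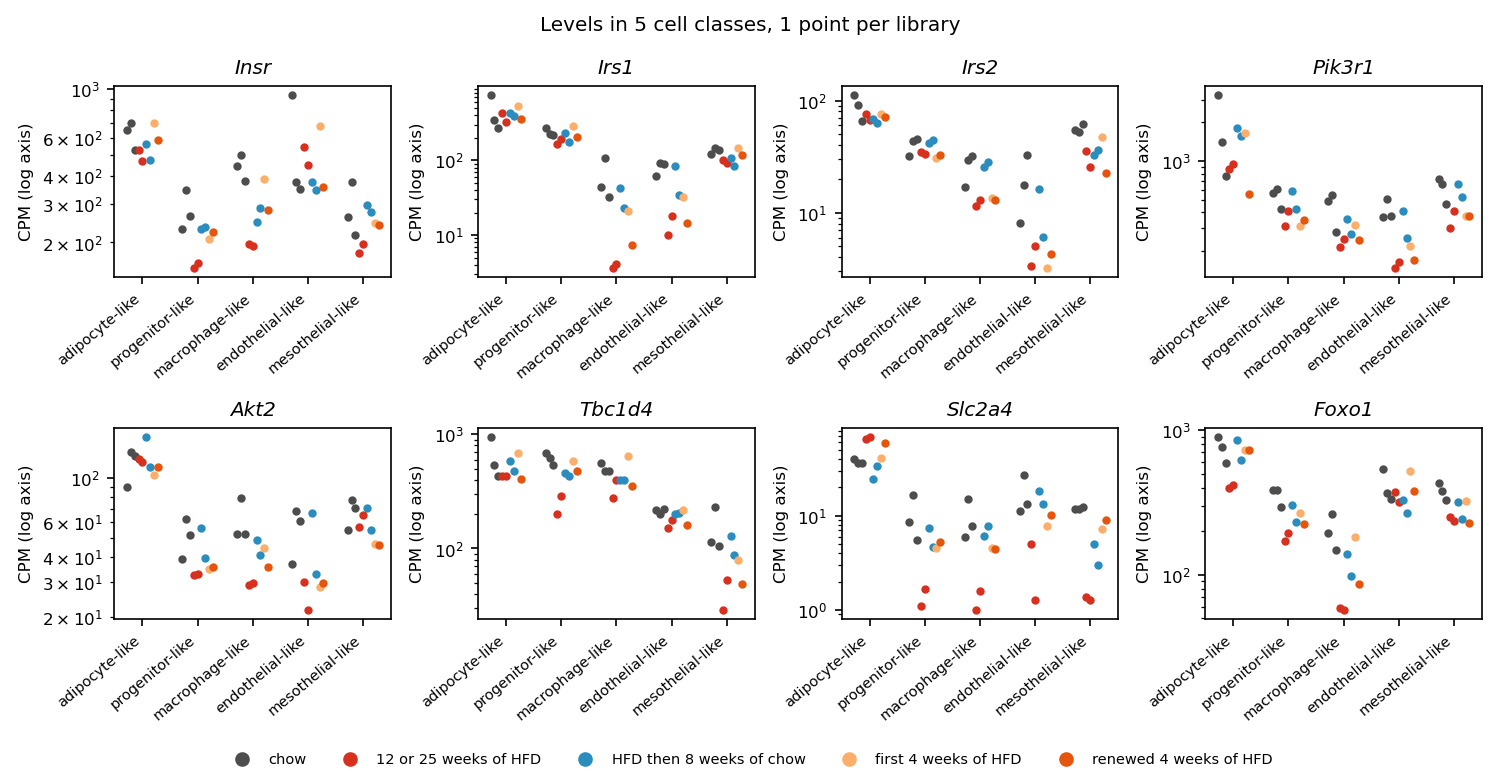
Level of each insulin signalling gene (CPM of summed UMIs, log axis) in 5 cell classes, 1 point per library, coloured by diet state. Adipocyte-like nuclei are highest for most genes, with Insr in endothelial-like nuclei (348 to 942 CPM) and Tbc1d4 in progenitor-like nuclei (200 to 693 CPM) as the exceptions.

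Compared per length within adipocyte-like nuclei, Pik3r1 had the highest median level over libraries, 15.9 CPM per kb of gene, though Slc2a4 was above it in H (11.6 against 9.83) and HH (12.2 against 10.8), and Slc2a4 and Foxo1 both were in HCH, where Pik3r1 had 6.36. Foxo1 (8.64), Slc2a4 (7.15) and Irs1 (6.63) followed by their medians on the same scale, and Insr (3.56), Irs2 (2.99), Tbc1d4 (2.89) and Akt2 (2.46) were lowest. Per kb of exon, Pik3r1 (138 CPM per exonic kb) and Foxo1 (84.6) again led, whereas Slc2a4 (11.6) dropped to the level of Irs2 (11.2). Nuclear RNA is rich in unspliced transcripts, so the place of Slc2a4 in the order depends on the length that is used.

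Between H and its control C, the adipocyte-like nuclei were lowest relative to C in Pik3r1, Foxo1 and Tbc1d4, and Slc2a4 was higher. The adipocyte-like nuclei of these libraries lay in different Leiden clusters, made with no correction between libraries. Cluster k10 held 89.2% of those of C and 41.7% of those of CCH, k8 held 82.3% in CC, 49.1% in CCC, 97.6% in HC and 47.3% in CCH, and k25 held 86.0% in H, 90.3% in HH, 74.2% in HHC and 64.3% in HCH. A further 22.2% of those of CCC, 12.8% of those of CC and 8.23% of those of HCH lay in k5, a cluster named endothelial. Cluster k14, named macrophage, held 22.8% of those of HHC and 7.23% of those of HCH. Another 4.24 and 2.24% of those of HCH lay in k0 and k1, also named macrophage. With 1 library per group, no test of 2 libraries was possible. Ratios of CPM are given with exact 95% intervals that cover counting error only. H with C and HH with C were each compared within sequencing set S075, whereas HH with CC, the closer age, crosses the sets.

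The receptor gene Insr had 649, 698 and 530 CPM in C, CC and CCC, 526 and 471 in H and HH, 561 and 473 in HC and HHC, and 699 and 587 in CCH and HCH. The control libraries were all above H and HH, though in the order of levels the run HH, HHC, H, CCC, HC and HCH held no neighbours that differed beyond counting error. The ratio of H to C was 0.811 (0.735 to 0.892) and that of HH to CC 0.675 (0.625 to 0.729). With the level in lymphoid-like nuclei (T, NK and B cells) of the same library subtracted, the log2 ratio of HH to CC turned to 0.30. In CC that level comes from 70 nuclei, in which adipocyte markers stood at 41.9% of their adipocyte-like level, so the subtraction takes out adipocyte RNA too.

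The adaptor gene Irs1 had 754, 342 and 273 CPM in C, CC and CCC, 424 and 329 in H and HH, 426 and 387 in HC and HHC, and 530 and 354 in CCH and HCH. C was the highest of the libraries, and H and HH lay inside the range of the controls. H was at 0.562 of C (0.504 to 0.624), but HH and CC could not be told apart (ratio 0.960, 0.870 to 1.06). Irs2, the less abundant adaptor, had 113, 91.7 and 65.3 CPM in C, CC and CCC, 76.2 and 66.5 in H and HH, 68.4 and 63.0 in HC and HHC, and 75.9 and 71.1 in CCH and HCH. H and HH again lay within the control range, but only through CCC, and both were below C and CC. CCC had the shallowest adipocyte-like nuclei of the libraries, at a median of 2347 UMIs. The 6 libraries of mice that had eaten HFD spanned 63.0 to 76.2 CPM.

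Pik3r1 varied most among the members, with 3291, 1396 and 763 CPM in C, CC and CCC, 862 and 944 in H and HH, 1804 and 1561 in HC and HHC, and 1666 and 558 in CCH and HCH. The controls alone spanned 763 to 3291 CPM, which includes every library but HCH, the lowest. H was at 0.262 of C (0.243 to 0.282), and HH at 0.676 of CC (0.640 to 0.714). With its many UMIs, all neighbours in the order of its levels differed beyond counting error, from HCH through CCC, H, HH, CC, HHC, CCH and HC to C.

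The kinase gene Akt2 had 90.7, 135 and 130 CPM in C, CC and CCC, 125 and 121 in H and HH, 162 and 114 in HC and HHC, and 104 and 114 in CCH and HCH. C was the lowest library and HC the highest, and the ratio of H to C (1.38, 1.12 to 1.69) lay above 1 whereas that of HH to CC (0.899, 0.765 to 1.05) did not exclude it. Tbc1d4, the vesicle brake, had 954, 541 and 429 CPM in C, CC and CCC, 434 and 431 in H and HH, 589 and 482 in HC and HHC, and 685 and 410 in CCH and HCH. H was at 0.455 of C (0.409 to 0.505), and HH at 0.796 of CC (0.733 to 0.865), yet CCC was as low as H and HH, and the log2 ratio of HH to CC turned to 0.23 with the lymphoid-like level subtracted.

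Slc2a4 was the only member above all 3 controls in both obese libraries. Its levels were 40.4, 36.4 and 36.1 CPM in C, CC and CCC, 65.5 and 69.1 in H and HH, 24.4 and 33.8 in HC and HHC, and 41.0 and 59.4 in CCH and HCH. In the order of levels, CCH and HCH were the one pair of neighbours that differed beyond counting error, so HCH, H and HH lay above the other 6 libraries. The levels rest on 52 to 476 UMIs per library, 55 of them in H and 130 in HH. The ratio was 1.62 (1.20 to 2.15) for H with C and 1.90 (1.48 to 2.44) for HH with CC. For H with C the direction rested on the upper limits of 3000 genes and 40000 UMIs per nucleus, as the log2 ratio of 0.70 became -0.11 without both. Over all barcodes of a library, without classes, the direction was the opposite, with Slc2a4 at 22.9 CPM in C and 24.3 in CC against 6.36 in H and 10.1 in HH. Fewer adipocyte nuclei and less RNA per nucleus cannot be told apart in such whole-library values.

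Foxo1 had 900, 760 and 589 CPM in C, CC and CCC, 400 and 415 in H and HH, 847 and 620 in HC and HHC, and 733 and 733 in CCH and HCH. H and HH, which did not differ beyond counting error, were below each of the other 7 libraries. The ratio was 0.445 (0.398 to 0.496) for H with C and 0.546 (0.503 to 0.591) for HH with CC.

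**Figure D2:**
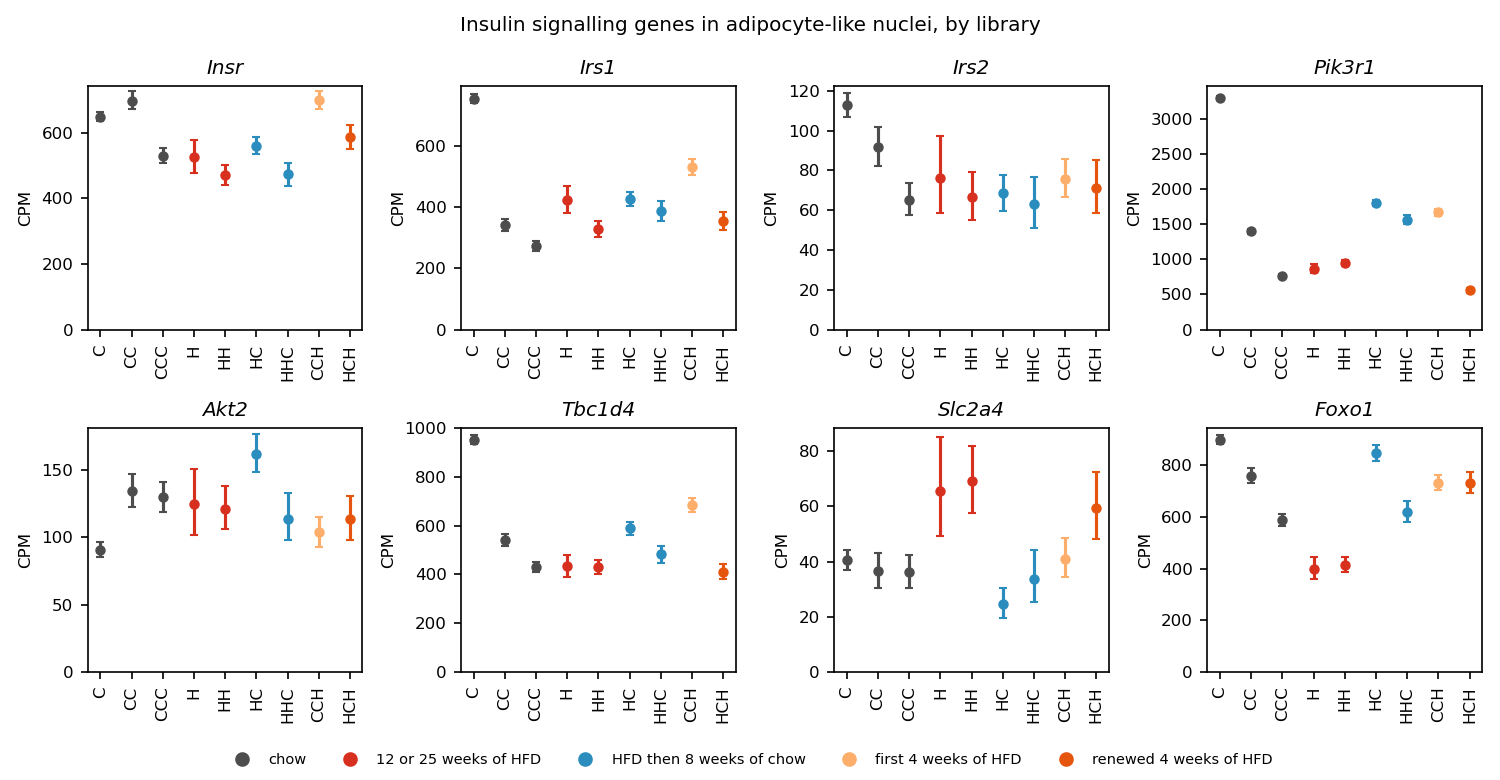
Level of each insulin signalling gene in adipocyte-like nuclei (CPM, linear axis from 0), 1 point per library with the exact Poisson 95% interval of the count. Slc2a4 stands at 65.5 and 69.1 CPM in H and HH against 36.1 to 40.4 in the controls, and Foxo1 at 400 and 415 against 589 to 900.

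Counted over the group, 2 members were higher and 6 lower in H than in C with an interval that left out 1, in a comparison where 51.0% of 11220 genes did so. In HH with CC, 1 was higher and 5 were lower (62.9% of all genes left out 1), and in HH with C, 2 were higher and 6 lower (64.4%). With so many genes past counting error, these counts by themselves are no result about insulin signalling. Over all genes, 35.2% were higher and 15.7% lower in H with C.

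Gene length moved with these ratios. In H with C the median log2 ratio of all genes was 1.09 for genes under 10 kb, 0.32 for 10 to 50 kb and -0.06 for 50 kb or longer, and in HH with CC it was 1.21, 0.22 and -0.22. Genes under 10 kb took 6.21, 11.9 and 10.2% of adipocyte-like UMIs in C, CC and CCC and 13.4 and 14.6% in H and HH. Slc2a4, the short member, was thus lower than the median of its length class, with 37.1% of the other genes under 10 kb below it in H with C and 37.9% in HH with CC. Among genes of 50 kb or longer, the share with a lower ratio than the member in H with C was 4.58% for Pik3r1, 9.85% for Foxo1, 10.3% for Tbc1d4, 15.5% for Irs1 and 37.0% for Insr. In HH with CC the same shares were 29.1% for Pik3r1, 17.5% for Foxo1, 42.7% for Tbc1d4, 60.4% for Irs1 and 29.0% for Insr. What set the length pattern was not tested.

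**Figure D3:**
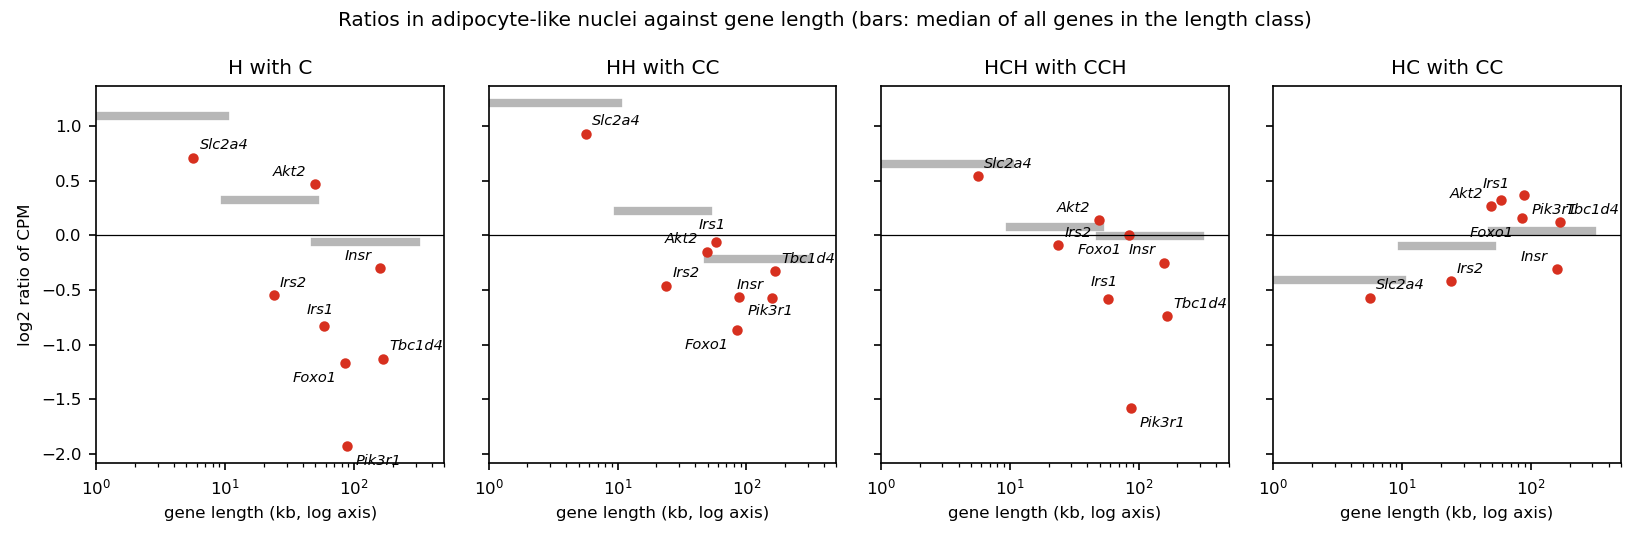
Log2 ratio of CPM in adipocyte-like nuclei against gene length (kb, log axis) for the 8 members (red points) in 4 comparisons, with the median of all genes of 3 length classes as grey bars. The median of genes under 10 kb is 1.09 in H with C, 1.21 in HH with CC, 0.65 in HCH with CCH and -0.41 in HC with CC, and Slc2a4 lies beneath it each time.

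To ask whether the obese libraries differed from the controls beyond the spread between libraries, UMIs were summed per library and class and fitted with edgeR's quasi-likelihood test, with H and HH as one state and the 3 controls as another. The p-values measure the spread between libraries of pooled mice only. The 3 controls differed in age and sequencing set, and H and HH in age and weeks of HFD, so that spread includes these differences. None of the 8 members passed an adjusted p of 0.05 in adipocyte-like nuclei, where 9.45% of the 15623 genes tested did. That share rested on single libraries, since the 1477 calls became 152 without CC, 5 without H and 0 without HH. At an unadjusted p under 0.05, Foxo1 was the 1 member to pass, where 31.2% of all genes did. Foxo1 came closest, with a log2 fold change of -1.17 (SE 0.38, edgeR adjusted p = 0.0811), followed by Slc2a4 at 0.57 (SE 0.26, edgeR adjusted p = 0.166) and Pik3r1 at -1.35 (SE 0.63, edgeR adjusted p = 0.180). The log2 fold changes of the others were -0.88 for Tbc1d4, -0.64 for Irs2, -0.60 for Insr and Irs1 and -0.19 for Akt2, and the median of the members was -0.62, against -0.06 over all genes and -0.51 over genes of 50 kb or longer, which 5 of the 8 members are. The sequencing set as a term could be estimated only from C against CC and CCC. That fit in effect set H and HH against C alone. Its log2 fold changes were -2.28 for Pik3r1, -1.56 for Tbc1d4, -1.43 for Irs1 and -1.56 for Foxo1. Without CCC, Pik3r1 and Foxo1 passed the threshold, in a fit where the calls over all genes rose as well. With gene length taken out of each library, Slc2a4 came to -0.10 (SE 0.27) and Foxo1 to -0.79 (SE 0.35), neither past the threshold, and without upper limits per nucleus Slc2a4 came to -0.07. Foxo1 also passed by DESeq2 (adjusted p = 0.0148), for which the share of all genes called is not given. Over its 15 alternatives its adjusted p ranged from 0.0148 to 0.358.

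After 8 weeks of chow, the levels of Foxo1, Pik3r1, Tbc1d4 and Irs1 in adipocyte-like nuclei of HC and HHC lay within the control range. The low end of that range was CCC for each of these genes. Slc2a4 lay below the control range, in HHC not beyond counting error. In HHC, Insr (473 CPM) and Irs2 (63.0 CPM) also lay below it, Irs2 not beyond counting error. Akt2 lay above it in HC (162 CPM). Foxo1 in HC was 1.11 times CC (1.06 to 1.18), and in HHC it did not differ from CCC beyond counting error (ratio 1.05, 0.977 to 1.14). Pik3r1 was higher than in the age-matched control in both, by 1.29 times in HC (1.24 to 1.34) and 2.05 times in HHC (1.94 to 2.16). In HHC with CCC, 97.2% of the other genes of 50 kb or longer had a lower ratio than Pik3r1. Irs1 was likewise higher in both, 1.24 times in HC (1.15 to 1.34) and 1.42 times in HHC (1.28 to 1.57). Insr was lower in both, at 0.804 of CC (0.757 to 0.854) and 0.892 of CCC (0.819 to 0.971), but the log2 ratio of HC to CC turned to 0.39 with the lymphoid-like level subtracted.

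Slc2a4 was at 0.670 of CC in HC (0.502 to 0.891), and in HHC its interval held 1 (0.936, 0.669 to 1.29). The log2 ratio of HC to CC turned to 1.59 with the lymphoid-like level subtracted, which in CC was 29.4 CPM (9.56 to 68.7) from 5 UMIs. Its length class moved in the same way in HC with CC, where the median log2 ratio of genes under 10 kb was -0.41 and that of Slc2a4 -0.58. In total 5 members were higher and 3 lower in HC with CC (40.7% of all genes left out 1), and 3 were higher and 1 lower in HHC with CCC (35.6%). These 4 libraries share the sequencing set S019.

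In the edgeR fit of HC and HHC against the 3 controls, 0 members passed, and neither did any other gene in adipocyte-like nuclei (0% of 15623 called, 1513 at an unadjusted p under 0.05, and 179 by DESeq2, with no member among them). The fold changes of the members ran from -0.47 (Irs2, SE 0.34) to 0.28 (Akt2, SE 0.29), with standard errors up to 0.61 (Pik3r1). With errors of this size, differences as large as those of H and HH could go undetected for any member. No member was called in H and HH either. Foxo1 had a log2 fold change of -0.02 (SE 0.37) and Slc2a4 of -0.40 (SE 0.27).

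The 4-week libraries ask whether mice that had been obese answer HFD differently from mice that had not. HCH was below CCH in Pik3r1, at 0.335 (0.312 to 0.359), in Tbc1d4 at 0.598 (0.548 to 0.653), in Irs1 at 0.667 (0.606 to 0.733) and in Insr at 0.839 (0.777 to 0.905). Slc2a4 was higher in HCH, at 1.45 times CCH (1.10 to 1.89), and Foxo1 was equal in both (ratio 1.000, 0.932 to 1.07). Among genes of 50 kb or longer, the share with a lower ratio was 0.771% for Pik3r1, 4.44% for Tbc1d4 and 7.43% for Irs1. The level of 558 CPM of Pik3r1 in HCH was below that of H and HH, and it was also below each control library. Without upper limits per nucleus, the log2 ratio of Slc2a4 shrank from 0.53 to 0.07, whereas that of Pik3r1 was -1.32 against -1.58. Altogether 1 member was higher and 4 were lower (41.8% of all genes left out 1), both libraries being of set S075 and of 1 age.

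CCH against CC showed what the first 4 weeks of HFD came with, though across sequencing sets. Irs1 was 1.55 times CC (1.44 to 1.67), Tbc1d4 1.27 times (1.19 to 1.35) and Pik3r1 1.19 times (1.15 to 1.24), and Akt2 was at 0.769 (0.667 to 0.885), a log2 ratio that turned to 1.07 with the lymphoid-like level subtracted. Insr (1.00, 0.947 to 1.06), Foxo1 and Slc2a4 did not differ beyond counting error. Thus 3 members were higher and 2 lower (48.5% of all genes left out 1).

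Shares of nuclei were compared at equal depth. After each adipocyte-like nucleus was thinned to 1000 UMIs, which left out 3 to 248 shallower nuclei per library, Pik3r1 was seen in 88.5% of nuclei in C (exact binomial 95% interval 87.1 to 89.7), 38.7% in H (31.8 to 45.9) and 37.4% in HCH (32.5 to 42.6). CC had 66.8%, CCC 45.6% (42.8 to 48.4), HH 50.0%, HC 74.0%, HHC 68.6% and CCH 65.9%, so the interval of the control CCC overlapped that of H. Lymphoid-like nuclei, which express Pik3r1 too, had it in 38.1% in C, 28.3% in H and 19.5% in HCH. The unthinned shares in adipocyte-like nuclei were 96.4%, 75.5% and 71.3%, at median depths of 4822, 4512 and 4298 UMIs. Slc2a4, which lymphocytes should lack, was seen in 2.68% (HC) to 6.19% (H) of thinned adipocyte-like nuclei and in 0 to 2.86% of lymphoid-like nuclei, whose median depths were 1160 to 2003 UMIs. For Akt2 the thinned share was 8.71% in C (7.59 to 9.94) and 8.76% in H (5.19 to 13.7), and unthinned 32.7 and 36.5%. The interval of H is too wide to tell whether the shares hold the difference seen in CPM. In CC the adipocyte-like share of Slc2a4 (3.08%, unthinned 14.9%) stood beside 2.86% of the 70 lymphoid-like nuclei (2 nuclei, 0.348 to 9.94%), too few to tell the shares apart.

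Outside adipocytes, several members were lower in the obese libraries and passed the test. In progenitor-like nuclei, the precursors of fat cells, Tbc1d4, Insr, Foxo1 and Slc2a4 fell, 4 of 8 where 15.2% of all genes passed. In macrophage-like nuclei 7 of the 8 fell where 32.5% of all genes passed. With gene length taken out, Insr and Pik3r1 (-0.57, SE 0.28) no longer passed there, and Tbc1d4, which had not passed, came to 0.07. The nuclei compared sat largely in different clusters. Of the progenitor-like nuclei, cluster k4 held 60.0, 82.0 and 58.9% in C, CC and CCC, and k2 held 71.0 and 77.7% in H and HH, whereas 80.7% of those of HC lay in k24 and 74.1% of those of HHC in k17. Of the macrophage-like nuclei, k6 held 75.7% in C and most in CCC, k0 and k1 together held most in H and HH, k21, an unnamed cluster, held 90.9% in HC, and k9 held 65.0% in HHC. In CC, 88.7% of the macrophage-like nuclei lay in k5, a cluster named endothelial. With clusters in place of gates, 4 members in progenitor clusters and 7 in macrophage clusters fell, Irs2 being lost and Tbc1d4 gained in the latter. The macrophage clusters left out most macrophage-like nuclei of CC. The share of all genes called with clusters is not given, so these counts cannot be set against a background. Cell subtypes and levels within a subtype were not told apart here. Adipocyte markers were read beside these results as a measure of adipocyte RNA, and whether they stand for free RNA, doublets or the gate was not tested. Adipocyte markers stood at 6.88, 23.6 and 9.87% of their adipocyte-like level in progenitor-like nuclei of C, CC and CCC, and at 2.49 and 2.62% in H and HH. In macrophage-like nuclei they stood at 7.37, 25.7 and 13.1% in the controls and at 3.85 and 4.36% in H and HH. A member's level multiplied by this share gives what adipocyte RNA could carry.

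Tbc1d4 in progenitor-like nuclei had 693, 617 and 541 CPM in C, CC and CCC, 200 and 287 in H and HH, 460 and 429 in HC and HHC, and 585 and 476 in CCH and HCH. H and HH were below every other library, and HC and HHC lay between them and the controls. Its log2 fold change was -1.55 (SE 0.25, edgeR adjusted p = 0.00768), with 16662 genes tested in the class. Adipocyte RNA could carry 7.84 to 20.7% of its level in the controls. Once that was subtracted, the log2 ratio of H to C went from -1.79 to -1.73 and that of HH to CC from -1.10 to -0.83. The call was lost in 1 of 15 alternatives, without H (edgeR adjusted p = 0.0637), and kept with gene length taken out.

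Insr in progenitor-like nuclei fell by 1.04 on the log2 scale (SE 0.23, edgeR adjusted p = 0.0190), from 230 to 346 CPM in the controls to 153 and 162 in H and HH. Its carried share reached 47.6% in CC, and once subtracted the log2 ratio of H to C went from -0.59 to -0.41 and that of HH to CC from -1.09 to -0.27. The call was lost with gene length taken out. Foxo1 fell by 1.17 (SE 0.25, adjusted p = 0.0179 by edgeR), from 293 to 383 CPM in the controls to 171 and 193, with a carried share of 16.2 to 46.9% in the controls. The log2 ratio of HH to CC for Foxo1 shrank from -0.99 to -0.16 once the carried level was subtracted, and that of H to C from -1.16 to -0.99. Slc2a4 fell by 3.10 (SE 0.60, adjusted p = 0.0134 by edgeR) on 6 to 46 UMIs per library, and adipocyte RNA could carry 32.1 to 64.7% of its level in the controls and all of it in H and HH. The calls of Insr, Foxo1 and Slc2a4 were each lost without H, without HH and with the sequencing set as a term, and that of Foxo1 without CC.

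In macrophage-like nuclei, where 16777 genes were tested, Insr, the receptor gene, had 448, 498 and 382 CPM in C, CC and CCC, 196 and 192 in H and HH, 247 and 286 in HC and HHC, and 389 and 282 in CCH and HCH. It fell by 1.29 on the log2 scale (SE 0.22, edgeR adjusted p = 0.00294), with a carried share of 10.7 to 35.9% in the controls and 10.3 and 10.7% in H and HH. The call was lost only with gene length taken out, where the log2 fold change was -0.56 (SE 0.20, edgeR adjusted p = 0.0559). In this class, genes of 50 kb or longer had a median log2 ratio of -0.27 in H with C. Of the others of that length, 20.2% had a lower ratio than Insr. The other 6 log2 fold changes that passed were -1.91 for Foxo1, -1.14 for Irs2, -1.16 for Akt2, -1.03 for Pik3r1, -2.95 for Slc2a4 and -4.09 for Irs1. Irs1 had 43.9, 108 and 31.8 CPM in the controls and 3.62 and 4.14 in H and HH, and adipocyte RNA could carry 81.1 to 450% of it in the 9 libraries, so that no level of its own could be shown. For Foxo1, which passed in 15 of 15 alternatives, the carried share was 34.0 to 74.5% in the controls and 26.2 and 31.7% in H and HH, and for Pik3r1 35.4 to 66.1% against 15.6 and 16.5%. For Irs2 it was 48.8, 80.0 and 27.0% in C, CC and CCC and 25.5 and 22.5% in H and HH, and once subtracted the ratio of H to C was 0.986 and that of HH to CC 1.70. The carried level of Slc2a4 exceeded the measured one in H and HH, at 253 and 192%. For Akt2 the carried share was 12.8 to 43.5% in the controls and 16.6 and 17.9% in H and HH. After subtraction the ratios of H to C and of HH to CC were 0.740 and 1.13 for Pik3r1, 0.338 and 0.584 for Foxo1, 0.534 and 0.538 for Akt2, and 0.440 and 0.537 for Insr. Without H, 3 of the 7 calls were left, and without HH 4. Tbc1d4, at 275 to 641 CPM over the 9 libraries, did not pass (-0.69, SE 0.24, edgeR adjusted p = 0.0515).

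**Figure D4:**
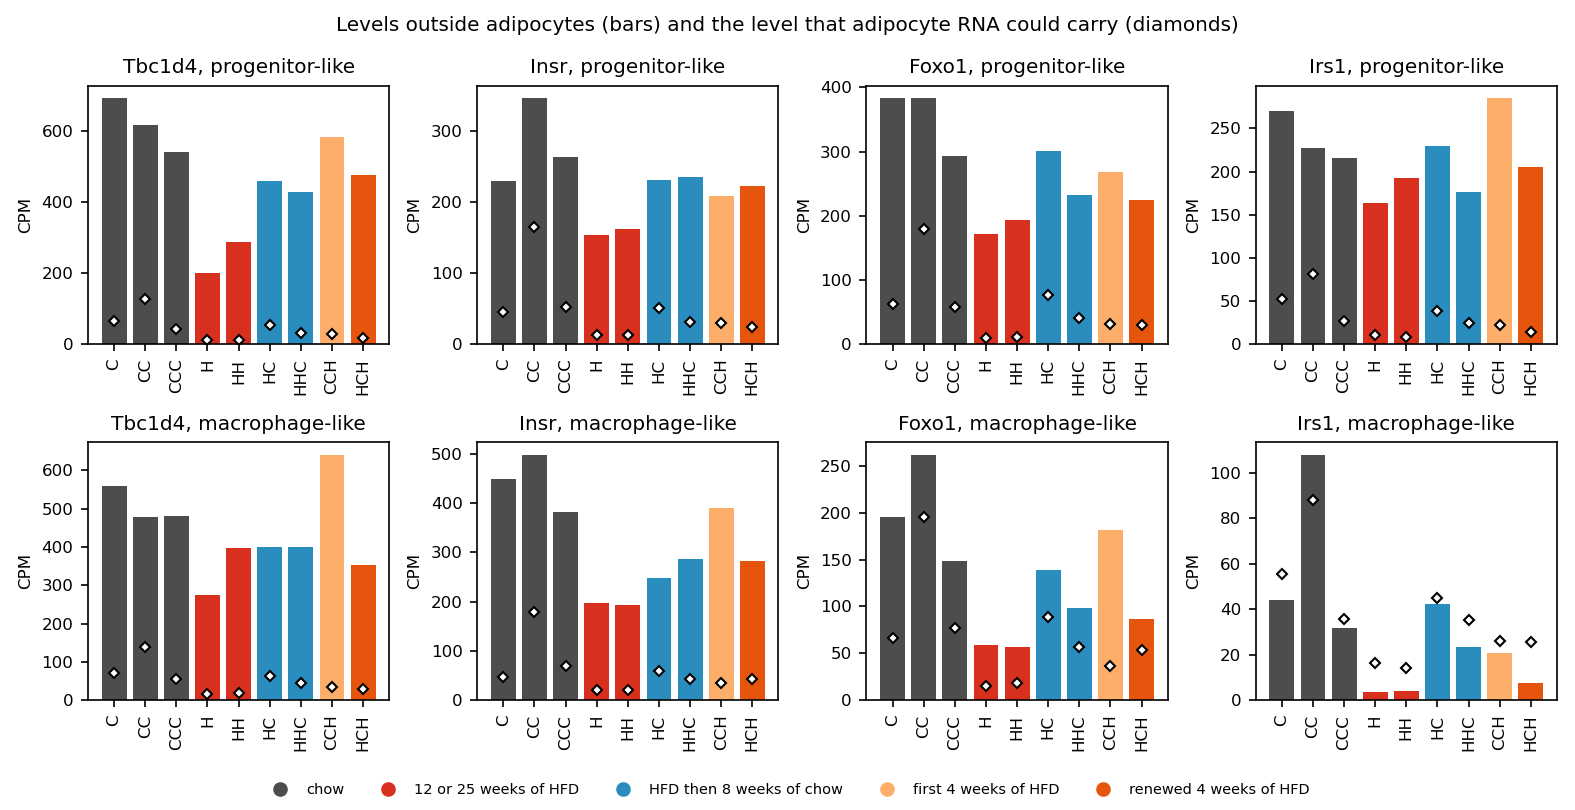
Level (CPM, bars from 0) of 4 insulin signalling genes in progenitor-like (top) and macrophage-like nuclei (bottom) of each library, and the level that adipocyte RNA could carry (diamonds). Tbc1d4 in progenitor-like nuclei stands at 200 and 287 CPM in H and HH against 541 to 693 in the controls, well over the diamonds, whereas Irs1 in macrophage-like nuclei lies near or beneath them.

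In endothelial-like nuclei 5.01% of 11905 genes passed, and Irs1 (-2.56, SE 0.52, edgeR adjusted p = 0.0232) and Pik3r1 (-1.48, SE 0.36, adjusted p = 0.0467) fell. Irs1 rested on 6 UMIs in H and 14 in HH, and adipocyte RNA could carry 79.1 to 196% of it in the controls, and 53.1 to 146% of Pik3r1. These shares rest on the gate markers, at 16.2, 11.7 and 7.93% of their adipocyte-like level in C, H and HH. The 5 adipocyte genes not used for gating gave less, at 322, 125 and 147 CPM there against 3607, 4130 and 4888 in adipocyte-like nuclei. In CCC they did not, at 807 against 2581 CPM beside 26.2% for the gate markers. The carried share in this class thus depends on the markers used. Neither the Irs1 nor the Pik3r1 call was left without CC, CCC, H or HH. Insr had 942, 377 and 349 CPM in C, CC and CCC and 545 and 453 in H and HH, and the spread of the controls covered the obese libraries. In mesothelial-like nuclei 8.92% of 11381 genes passed, Slc2a4 was too low to be tested, and Tbc1d4 (-1.92), Pik3r1 (-0.89) and Irs2 (-0.98) fell. Tbc1d4 had 114, 230 and 105 CPM in the controls and 28.9 and 53.5 in H and HH there, but adipocyte RNA could carry 41.6 to 64.1% of it in the controls. After subtraction its log2 ratio was -0.76 for H with C and -1.13 for HH with CC, but 0.19 for HH with C. For Pik3r1 the carried share was 16.7 to 49.7% in the controls. Once subtracted, its log2 ratio was -0.70 for H with C and turned to 0.24 for HH with CC. For Irs2 the carried share was 10.8 to 41.8%, and the 2 log2 ratios after subtraction were -0.41 and -0.31. Tbc1d4 lost its call without H, Pik3r1 without C, CC, H or HH, and Irs2 without any 1 of the 5 libraries compared.

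Against the controls, HC and HHC had no member past the threshold in any of these classes, where 1.22% of genes passed in progenitor-like, 5.92% in macrophage-like, 0.286% in endothelial-like and 0.571% in mesothelial-like nuclei. At an unadjusted p under 0.05, 3 members passed: Tbc1d4 in progenitor-like nuclei, and Insr and Foxo1 in macrophage-like nuclei. In these classes 14.4% and 21.6% of all genes did so, which leaves the members' counts near the background. Insr in macrophage-like nuclei came closest (-0.73, SE 0.21, edgeR adjusted p = 0.0820) and passed by DESeq2 and with clusters in place of gates. The calls over all genes rose under both alternatives. The macrophage clusters also left out most macrophage-like nuclei of CC and HC. Tbc1d4 in progenitor-like nuclei had a log2 fold change of -0.53 (SE 0.24, edgeR adjusted p = 0.343).

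**Figure D5:**
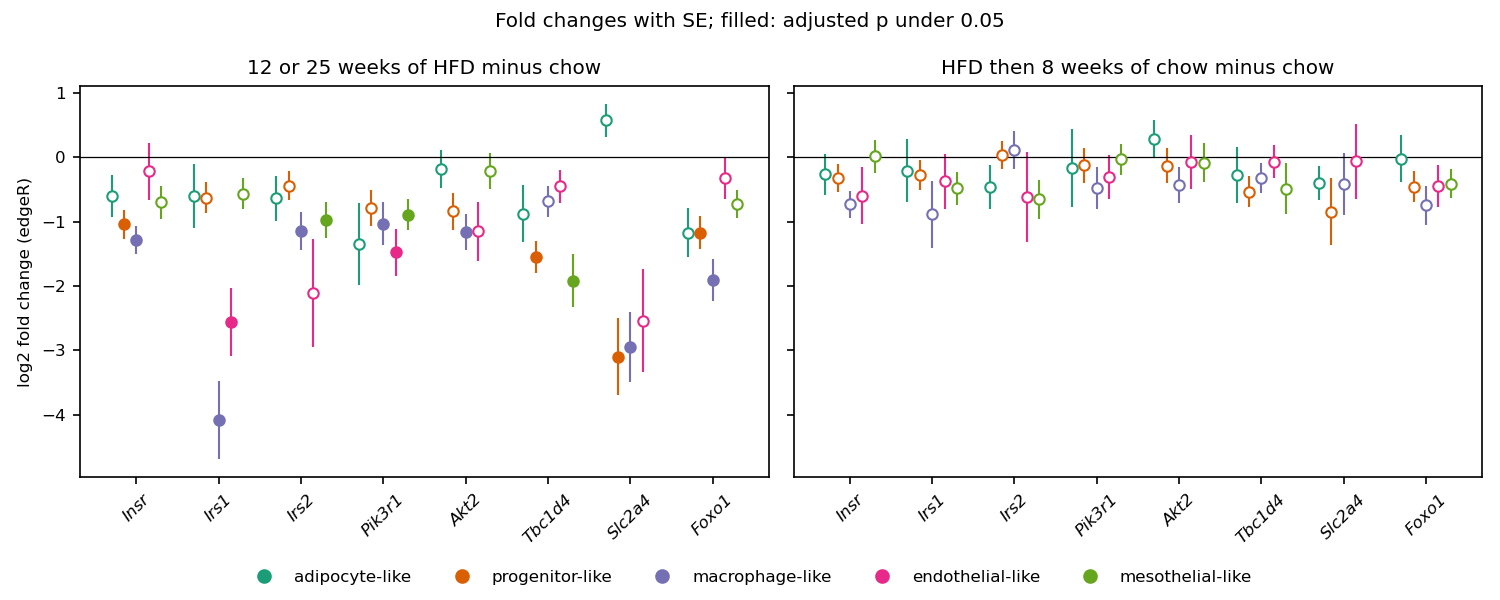
Log2 fold change with SE from edgeR for each insulin signalling gene and class, for H and HH minus the controls (left) and HC and HHC minus the controls (right). Filled points pass an adjusted p of 0.05, none of them in adipocyte-like nuclei and none on the right, and Irs1 in macrophage-like nuclei is lowest at -4.09.

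A list of 94 further genes of the pathway, of which 91 could be tested in adipocyte-like nuclei, was read beside the members. In H and HH against the controls 5 rose and 4 fell, 9 of 91 where 9.45% of all genes passed, so the count of the list is at the background. The median log2 fold change of the list was -0.36 against -0.06 over all genes. No call was made in HC and HHC. By group, 1 of 3 receptors and ligands of the insulin-like growth factor family, 1 of 10 adaptors, 1 of 20 genes of PI3K and the kinase complexes after it, 3 of 18 brakes on the pathway, 1 of 19 genes of GLUT4 vesicle traffic, 1 of 9 effectors and 1 of 12 FOXO1 targets passed.

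Among the genes that rose, Pdk4, a FOXO1 target that restrains the use of glucose by mitochondria, had 32.2, 11.2 and 9.58 CPM in C, CC and CCC, 152 and 180 in H and HH, 11.6 and 16.2 in HC and HHC, and 25.9 and 69.9 in CCH and HCH. Its log2 fold change was 2.87 (SE 0.53, edgeR adjusted p = 0.0164), and it was back within the control range in HC and HHC. Irs3, a further adaptor of rodents, rose by 2.38 (SE 0.38, adjusted p = 0.0116 by edgeR), from 9.79 to 21.4 CPM in the controls to 67.8 and 104. It is 2.68 kb long, and with gene length taken out its log2 fold change was 1.24 (edgeR adjusted p = 0.0430). Grb14, which binds the active receptor and inhibits it, had 59.9, 75.8 and 87.2 CPM in C, CC and CCC, 331 and 224 in H and HH, 273 and 376 in HC and HHC, and 164 and 237 in CCH and HCH. All 6 libraries of mice that had eaten HFD were above the 3 controls. Grb14 rose by 1.66 (SE 0.25, edgeR adjusted p = 0.00967) in H and HH, and in HC and HHC its log2 fold change of 2.13 (SE 0.25, edgeR adjusted p = 0.0688) did not pass, while 7 of 15 alternatives called it. It is 113 kb long, and 95.3% of the other genes of 50 kb or longer had a lower fold change in H and HH.

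Of the genes that fell, Igf1r, the receptor for insulin-like growth factor that also forms hybrids with the insulin receptor, had 68.4, 123 and 229 CPM in the controls, 26.2 and 36.7 in H and HH, 74.9 and 65.6 in HC and HHC, and 62.4 and 66.8 in CCH and HCH. It fell by 2.31 (SE 0.44, edgeR adjusted p = 0.0181). Foxo3, the relative of Foxo1, fell by 1.22 (SE 0.28, edgeR adjusted p = 0.0307), from 148 to 170 CPM to 95.2 and 68.6, and Tns2, a tensin counted with the brakes, fell by 0.91 (SE 0.23, edgeR adjusted p = 0.0434). With gene length taken out, 6 of the list passed, among them Pdk4, Irs3, Grb14, Igf1r and Tns2 but not Foxo3. No call on the list was left without CC, H or HH, whichever was taken out.

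Over the 9 libraries, genes with a level much like that of Slc2a4 in adipocyte-like nuclei included Arxes2 (Pearson r = 0.993 of log2 CPM over the libraries) and Polr2h (0.990), out of 12306 genes. Arxes2 had 27.5 to 49.0 CPM in the controls and 150 and 169 in H and HH. Those most like Insr were Snx12 (0.947), Ssh2 (0.943) and Gm30173 (0.941). The libraries share depth and sequencing set among these genes, and the coefficients describe 9 points. Slc2a4 is also a gene under 10 kb, a length class whose median ratio was raised in H with C and HH with CC. The part of gene length in these coefficients was not tested.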

How the data were processed

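Raw count matrices were analysed as deposited. Per the labels and methods, the authors pooled nuclei of 5 mice per group, used the 10x 3′ v3.1 kit, and made the UMI counts with Cell Ranger 6.1.2 on mm10 with introns included. Seurat 4.1.0 is also named in the submitters' processing notes. Each matrix is 1 sample. The 8 members, the pathway list of 94 genes and the markers were chosen with earlier results of these data known.

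Nuclei with 500 to 3000 genes and at most 40000 UMIs were kept. Doublets were scored with Scrublet in scanpy 1.11.5 and removed by its automatic threshold in C, H, HH, CCH and HCH. In CC, CCC, HC and HHC, where that threshold marked 0 to 0.0460% of nuclei, the highest scores at the expected rate were removed. Each nucleus was assigned to 1 of 13 classes by a marker gate that asked for a log-likelihood ratio of at least 3 and at least 2 markers. The scoring rule of the gate was set after the data had been seen. CPM used all UMIs of a class but 14 genes (mitochondrial genes and Malat1). Levels have exact Poisson 95% intervals and ratios exact conditional ones (scipy 1.17.1, Python 3.11.15), which cover counting error only, at total counts of 22599619 to 66615262 UMIs per library.

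Summed counts were tested with edgeR 4.0.16 (quasi-likelihood, TMM factors, filterByExpr, R 4.3.3) in 1 fit of 9 libraries with 5 states, namely controls, H with HH, HC with HHC, CCH, and HCH, adjusted by the Benjamini-Hochberg method over all genes at 0.05. The fit was also run on simulated data, and the result of that run is not used here. The named genes were the members, the 3 pathway genes with the largest fold change in each direction past the threshold, and the 3 genes most correlated with Slc2a4 and with Insr among those with at least 100 UMIs in all and 1 in each library. One gene that this rule names is not reported here. Grb14 after weight loss was named after its values were seen.

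Alternatives were DESeq2 1.42.0 and its size factors, no low-count filter, the sequencing set as a term, 7 libraries without CCH and HCH, each library left out, Leiden clusters (leidenalg 0.10.2), doublets kept, TMM factors, a stricter gate of 4 markers, all genes in the totals, no upper limits, and the lymphoid-like level subtracted. Nuclei with at least 3000 UMIs, a gene-length offset, the subtraction of adipocyte RNA, and the fits without upper limits were added after the data had been seen. Gene lengths were found for 99.6% of genes. RefSeq promoter windows were matched by symbol.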

Additional observations from a re-analysis of the deposited data

How the results depend on the processing

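No paired analysis was possible because each group has 1 library. Of the log2 ratios in adipocyte-like nuclei recomputed under the alternatives, 348 moved by less than the counting interval, 92 moved by more, and 8 with an interval that left out 1 reversed. With the lymphoid-like level subtracted, HH with CC became 0.30 for Insr, 0.05 for Irs2 and 0.23 for Tbc1d4, HC with CC became 0.39 for Insr and 1.59 for Slc2a4, CCH with CC became 1.07 for Akt2, and HHC with CCC became -0.11 for Tbc1d4. Without upper limits, H with C became -0.11 for Slc2a4. The causes were not tested.

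In the other classes 459 ratios stayed within the counting interval, 149 moved and 27 reversed. With adipocyte RNA subtracted, HH with CC became positive for Irs1 (progenitor-like 0.34, mesothelial-like 0.46), Irs2 (progenitor-like 0.51, macrophage-like 0.76), Pik3r1 (progenitor-like 0.46, macrophage-like 0.18, endothelial-like 0.86, mesothelial-like 0.24), Tbc1d4 (macrophage-like 0.16) and Foxo1 (mesothelial-like 0.21). HH with C became 0.42 for Irs1 and 0.19 for Tbc1d4 in mesothelial-like nuclei, 0.18 for Pik3r1 in progenitor-like nuclei and 1.15 for Tbc1d4 in endothelial-like nuclei, where H with C became 0.63. In endothelial-like nuclei of C, H and HH the adipocyte genes not used for gating gave a lower share of adipocyte RNA than the gate markers subtracted here. HC with CC became 0.25 for Insr (mesothelial-like), 0.08 for Pik3r1 (endothelial-like) and 0.15 for Foxo1 (progenitor-like). CCH with CC became 0.15 and 0.01 for Insr (macrophage-like, mesothelial-like), 0.31 and 0.72 for Irs2 (progenitor-like, macrophage-like), 0.37 for Pik3r1 (macrophage-like), and 0.22 and 1.13 for Foxo1 (progenitor-like, macrophage-like), the last being 0.12 with Leiden clusters. With TMM factors HCH with CCH became -0.04 for Insr in progenitor-like nuclei. CC had the highest level of adipocyte RNA, which the subtraction by its construction takes out of CC most.

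For H and HH against the controls, 0 members were called in adipocyte-like nuclei. That count became 1 with DESeq2, 2 with no low-count filter, 1 with nuclei of at least 3000 UMIs, and 0 to 2 with a library left out. With the sequencing set as a term the fit in effect had C as its only control, so its count of members is not given. The share of all genes called by DESeq2 is not given either, so its 1 member cannot be set against a background. Over all genes the 1477 calls became 3362 with no low-count filter, 725 with the gene-length offset, 2282 with nuclei of at least 3000 UMIs and 3143 without upper limits, and ran from 0 without HH to 2233 without CCC. The 2529 in progenitor-like nuclei became 4068 with no low-count filter, 199 with the set and 1675 with deeper nuclei, and 249 to 2060 with a library left out. The 5453 in macrophage-like nuclei became 3188 with the set, and 2127 to 4816 with a library left out. The 597 in endothelial-like nuclei became 1492 with no low-count filter and 49 with deeper nuclei, and 0 to 1495 with a library left out. The 1015 in mesothelial-like nuclei became 625 with DESeq2, 1669 with no low-count filter, 426 with the set, 669 with the length offset and 417 with deeper nuclei, and 208 to 1078 with a library left out. The 9 pathway calls became 14 with DESeq2, 21 with no low-count filter, 19 with the set, 20 with deeper nuclei and 14 without upper limits, and 0 to 16 with a library left out.

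For HC and HHC, the 0 calls in adipocyte-like nuclei became 179 with DESeq2, 737 with no low-count filter, 11 with the set, 4 with doublets kept, 17 with deeper nuclei and 12 without upper limits, and 0 to 59 with a library left out. The 203 in progenitor-like nuclei became 486, 1459 and 33 with DESeq2, no low-count filter and the set, 133 with deeper nuclei and 326 without upper limits, and 34 to 368 with a library left out. The 994 in macrophage-like nuclei became 1504 with DESeq2, 632 with the set, 2035 with Leiden clusters and 1507 without upper limits, and 529 to 833 with a library left out. The 34 in endothelial-like nuclei became 93, 368 and 90 with DESeq2, no low-count filter and the set, 13 with 7 libraries, 3 with Leiden clusters, 9 with deeper nuclei and 1 without upper limits, and 4 to 81 with a library left out. The 65 in mesothelial-like nuclei became 406 with no low-count filter, 35 with the set, 112 with doublets kept and 32 with deeper nuclei, and 11 to 115 with a library left out. The 0 pathway calls became 1 with DESeq2, 2 with no low-count filter, 1 each with the set, doublets kept, deeper nuclei and no upper limits, and 0 to 1 with a library left out. Members' edgeR fold changes gained a call in 29 cases, lost one in 62, changed sign by more than their SE with no call in 24, and did none of these in 1055. No member was called in adipocyte-like nuclei of HC and HHC under any alternative run. Depth limits Slc2a4, with 52 to 476 UMIs per library, and the values of H, with 200 adipocyte-like nuclei.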
